A study of Mus musculus with 10 samples.

Results

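Sideroflexins are proteins of the mitochondrial inner membrane, and the enzymes described with them carry single carbon units on folate. 10 genes were chosen by name from the 54532 genes of the cochlear RNA-seq count files: the sideroflexins Sfxn1, Sfxn2, Sfxn3, Sfxn4 and Sfxn5, and the folate enzymes Shmt1, Shmt2, Mthfd1, Mthfd2 and Mthfd1l. Sfxn3 was included because it was slightly and evenly higher in the treated mice of these same data, so its group difference is given as a description with no test. The other 9 genes were taken because they belong to the same family or pathway. All 10 passed the filter on low counts that left 18329 genes for testing.

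The 10 mice carried mtKeima, a transgene for a fluorescent protein of the mitochondria that reports mitophagy, on a mixed background, and were 12 months old. 5 mice (the NR group) had drunk water with nicotinamide riboside (NR), a precursor of NAD+, at 7 mg/ml (24 mM) from 2 months of age for 10 months, and 5 non-treated mice (the Vehicle group) had drunk regular water. The methods of the study describe mice genotyped as wild type for Cdh23 and Nnt. Each library was made from cochlear tissue with no sorting of cells, and the labels do not say whether ears were pooled. In bulk tissue, fewer cells of a type and less RNA per cell cannot be told apart.

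Serine is carried into mitochondria by sideroflexins, of which Sfxn1 is the best known transporter and Sfxn3 a close relative with the same activity. Inside, Shmt2 splits serine into glycine and a carbon unit on tetrahydrofolate, Mthfd2 oxidises that unit with NAD+, and Mthfd1l releases it as formate for the cytosol, where Mthfd1 and Shmt1 work on the same intermediates for nucleotide and methionine synthesis. The comparison of the 2 groups asked whether long-term supply of an NAD+ precursor was accompanied by other transcript levels in the aged cochlea.

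The libraries held 17060379 to 22931581 counted reads in the NR group and 20004667 to 24419230 in the Vehicle group. No gene passed an adjusted p of 0.05 in edgeR's quasi-likelihood test, in which 886 genes were higher (4.83% of those tested) and 894 lower (4.88%) in NR at an unadjusted p of 0.05, and DESeq2 called 105 genes at an adjusted p of 0.05. Below, "called" means an unadjusted p of at most 0.05 in the edgeR test, a level at which 9.71% of all tested genes were called. The labels give all mice as female and the methods as male. Xist was at 0.0882 to 0.405 CPM (read counts scaled to a common library total), and 4 genes of the Y chromosome (Ddx3y, Eif2s3y, Kdm5d and Uty) were at 24.3 to 85.0 CPM in all 10 libraries, which goes against the label.

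Sfxn3 (ENSMUSG00000025212, mm10 chr19:45047576-45056383, plus strand) was the most abundant of the 10 genes per length of transcript. Because it was the gene chosen on its values, its promoter is shown first. The promoters of Shmt2 and Mthfd2 are shown beside it because the levels of these 2 genes varied together from mouse to mouse. Each line gives the 250 bases before the RefSeq start on GRCm38.p6, 5′ to 3′ in the direction of the gene, at chr19:45047326-45047575 for Sfxn3, chr10:127522445-127522694 (minus strand) for Shmt2 and chr6:83317605-83317854 (minus strand) for Mthfd2. The 250 bases of Mthfd2 lie inside the counted span of that gene (chr6:83305691-83325908), so their motif positions hold only for the RefSeq start used. Capitals mark matches to a GC box in Sfxn3, to an NRF1 motif in Shmt2 and to CCAAT in Mthfd2, read on both strands.
Sfxn3: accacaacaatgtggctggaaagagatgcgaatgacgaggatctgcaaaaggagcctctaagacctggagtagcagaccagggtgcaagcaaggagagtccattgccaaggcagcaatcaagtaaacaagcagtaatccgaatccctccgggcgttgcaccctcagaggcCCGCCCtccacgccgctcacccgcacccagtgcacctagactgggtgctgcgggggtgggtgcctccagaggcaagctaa
Shmt2: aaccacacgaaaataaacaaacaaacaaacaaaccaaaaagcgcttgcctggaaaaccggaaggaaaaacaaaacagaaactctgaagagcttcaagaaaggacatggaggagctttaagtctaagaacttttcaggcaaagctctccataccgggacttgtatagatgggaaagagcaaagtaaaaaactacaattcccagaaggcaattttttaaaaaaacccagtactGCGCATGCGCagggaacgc
Mthfd2: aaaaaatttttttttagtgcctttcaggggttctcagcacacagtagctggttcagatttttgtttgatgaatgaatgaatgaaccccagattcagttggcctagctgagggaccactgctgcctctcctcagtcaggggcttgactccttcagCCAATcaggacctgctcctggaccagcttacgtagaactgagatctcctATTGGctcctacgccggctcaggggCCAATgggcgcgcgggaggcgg

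4 motifs were searched on both strands in the same 250 bases of all 10 genes, all of which had a RefSeq promoter, and of 32851 promoters in all. The GC box, GGGCGG, was in 7 of the 10 genes and in 32.7% of all promoters. In Sfxn3 it began 80 bases before the start, and Mthfd2, Shmt2 and Sfxn5 held none. CCAAT was in Mthfd1, Mthfd2, Sfxn2, Sfxn5 and Shmt1, against 33.8% of all promoters, and Mthfd2 held 3 copies, beginning 96, 47 and 22 bases before its start. The NRF1 motif was in Shmt2, 19 bases before the start, and in Sfxn2, against 3.74% of all promoters. TGATGNAA, a core part of the element bound by Atf4, was in Sfxn4 alone of the 10 genes, against 3.45% of all promoters. The 250 bases of Shmt1 also lie inside the counted span of that gene, and those of Sfxn4 lie partly inside its span. As for Mthfd2, their matches hold only for the RefSeq starts used. Matches to letters do not show binding.

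Sfxn3 stood at 113, 110, 111, 113 and 110 CPM in NR replicates 1 to 5 and at 94.6, 97.3, 90.8, 96.9 and 98.6 CPM in Vehicle replicates 1 to 5. Every NR mouse lay above every Vehicle mouse. This order held for 0.769% of all tested genes, from which nothing is read here, since Sfxn3 was chosen for it. The means were 111 ± 1.51 CPM (SD, n = 5) in NR and 95.6 ± 3.07 CPM (SD, n = 5) in Vehicle, a log2 fold change of 0.22 with a standard error of 0.038, or 16.4% more. Between 1894 and 2583 reads per library stood behind these values.

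The coefficient of variation of Sfxn3 was 3.21% over the Vehicle mice and 1.35% over the NR mice. Sfxn3 was chosen for a small and even difference, which a narrow spread within groups helps to make, so these values describe the choice and were not compared with other genes.

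**Figure D1:**
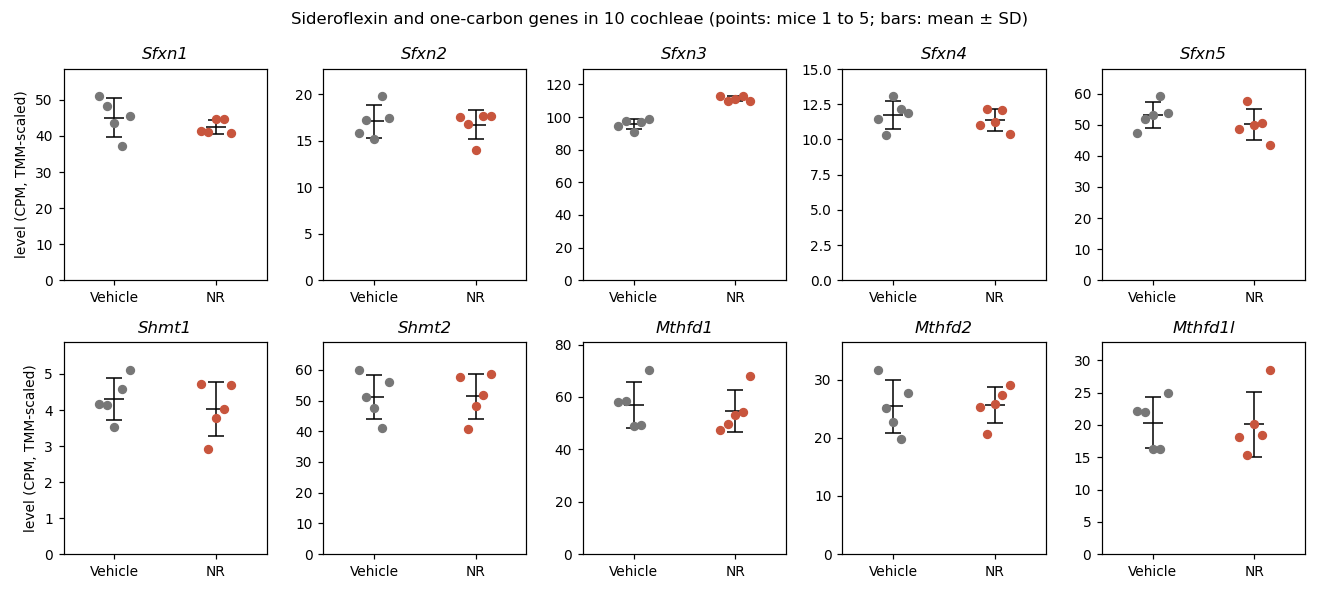
Level of each of the 10 genes in every mouse, in CPM after TMM scaling, with NR and Vehicle mice side by side (n = 5 each, 1 point per mouse) and the bars at the group mean ± SD. The 5 NR points of Sfxn3 all lie above its 5 Vehicle points, and the groups of the other 9 genes overlap.

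Markers of several cell types were also called, where 4.83% of all tested genes were called higher and 4.88% lower. None passed an adjusted p of 0.05 in edgeR, the lowest being 0.224. Of the adipocyte markers, 7 of 9 tested were called higher in NR, with a summed level of 99.3 to 270 CPM against 44.3 to 91.6 CPM in Vehicle. Of the skeletal muscle markers, 8 of 10 were called higher, with sums of 34.6 to 1094 CPM against 32.7 to 128 CPM, and NR replicates 3 and 5 held the highest sums. Of the neuron markers, 5 of 11 were called higher, at 5501 to 6207 CPM against 4018 to 6161 CPM. Of the supporting cell and matrix markers, 7 of 8 were called lower, at 1166 to 1611 CPM against 1304 to 2496 CPM, and of the stria and fibrocyte markers 5 of 8 were lower. No marker of the 13 lists was at 0 in all mice, and the hair cell markers that define the organ of Corti summed to 132 to 233 CPM in NR and 144 to 398 CPM in Vehicle, with 1 of 8 called lower. In the remaining lists, 1 of 7 Schwann cell markers was called lower, 1 of 7 bone markers was called higher, and none of the central glia, B lymphocyte, neutrophil, erythroid or proliferating cell markers was called by edgeR.

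Fits that were added after seeing the data each took a marker list, averaged as log2 CPM rather than summed, as covariate. The lists were those for adipocytes, muscle, supporting cells and proliferating cells. In these fits the log2 fold change of Sfxn3 lay between 0.20 and 0.23. These fits read the same contrast on which Sfxn3 was chosen and are no support for the difference. Within the groups, the level of Sfxn3 was not tied to any of the 13 lists at an adjusted p of 0.05 (exact permutation over 10 mice, 130 relations in all). The Pearson r ran from -0.53 with the hair cell markers (rho -0.60, exact permutation p = 0.262, adjusted 0.400) to 0.56 with the neutrophil markers (rho 0.50, exact permutation p = 0.0763, adjusted 0.217). The latter fell to -0.098 without the 2 farthest mice and so rests on them. Without the 2 mice farthest in the hair cell markers, the former was -0.72.

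The other sideroflexins had group means that lay close together. Sfxn1 (ENSMUSG00000021474, chr13:54071869-54108342), the mitochondrial serine transporter, stood at 41.4, 41.1, 44.6, 44.8 and 40.8 CPM in NR and at 51.0, 48.4, 43.5, 37.2 and 45.5 CPM in Vehicle. The highest and the lowest value both belonged to Vehicle mice, and the groups overlapped. Its log2 fold change was -0.085 (SE 0.081, 95% interval -0.26 to 0.094, edgeR adjusted p = 0.744). Without Vehicle replicate 4, the lowest mouse, it was -0.14 with an unadjusted edgeR p of 0.0371 and an adjusted p of 0.566.

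Sfxn2 (chr19:46573365-46596898), which has been tied to mitochondrial iron and heme, stood at 17.6, 16.8, 14.0, 17.7 and 17.7 CPM in NR and at 15.8, 17.2, 15.2, 19.8 and 17.5 CPM in Vehicle. Its values overlapped, with NR replicate 3 the lowest and Vehicle replicate 4 the highest, and the log2 fold change was -0.031 (SE 0.097, 95% interval -0.24 to 0.18, edgeR adjusted p = 0.928). Sfxn4 (chr19:60837277-60861479, minus strand) is needed for the assembly of respiratory complex I. It stood at 11.0, 12.2, 11.2, 12.1 and 10.4 CPM in NR and at 11.4, 10.3, 13.1, 12.1 and 11.8 CPM in Vehicle. These groups covered nearly the same range, and the log2 fold change was -0.047 (SE 0.091, 95% interval -0.25 to 0.15, edgeR adjusted p = 0.877).

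Sfxn5 (chr6:85213049-85333422, minus strand), which has been described as a carrier of citrate, stood at 48.8, 57.8, 50.0, 50.7 and 43.5 CPM in NR and at 47.5, 51.9, 53.1, 59.2 and 54.0 CPM in Vehicle. The lowest value was an NR mouse and the highest a Vehicle mouse, and the groups overlapped. Its log2 fold change was -0.083 (SE 0.080, 95% interval -0.26 to 0.093, edgeR adjusted p = 0.746). Sfxn2, Sfxn3 and Sfxn4 lie on chromosome 19.

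Of the mitochondrial folate enzymes, Shmt2 (ENSMUSG00000025403, chr10:127517123-127522444, minus strand) stood at 57.7, 40.7, 48.4, 51.9 and 58.6 CPM in NR and at 59.9, 51.0, 47.7, 41.1 and 56.0 CPM in Vehicle. Each group held mice near 41 and mice above 55 CPM, so the groups overlapped almost fully. The means were 51.5 ± 7.33 and 51.1 ± 7.30 CPM (SD, n = 5 each), with a log2 fold change of 0.0088 (SE 0.12, 95% interval -0.25 to 0.27, edgeR adjusted p = 0.987).

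Mthfd2 (chr6:83305691-83325908, minus strand), the NAD+-dependent dehydrogenase and cyclohydrolase, stood at 25.2, 20.7, 25.8, 27.4 and 29.0 CPM in NR and at 31.6, 25.1, 22.7, 19.8 and 27.7 CPM in Vehicle. The lowest and the highest mouse were both Vehicle, and the log2 fold change was 0.013 (SE 0.13, 95% interval -0.27 to 0.30, edgeR adjusted p = 0.983). Mthfd1l (chr10:3973118-4167081), the formate-releasing synthetase, stood at 18.1, 15.3, 20.1, 18.4 and 28.5 CPM in NR and at 22.2, 22.0, 16.2, 16.2 and 25.0 CPM in Vehicle. Replicate 5 was highest in both groups, and the log2 fold change was -0.019 (SE 0.18, 95% interval -0.41 to 0.37, edgeR adjusted p = 0.982).

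Of the cytosolic enzymes, Mthfd1 (chr12:76255298-76319803), the trifunctional folate enzyme, stood at 47.6, 49.6, 53.1, 54.3 and 68.1 CPM in NR and at 58.1, 58.6, 48.9, 49.4 and 70.3 CPM in Vehicle. Again replicate 5 was highest in each group, and the log2 fold change was -0.065 (SE 0.12, 95% interval -0.33 to 0.20, edgeR adjusted p = 0.872). Shmt1 (chr11:60788104-60811718, minus strand), the cytosolic serine hydroxymethyltransferase, stood at 4.72, 2.91, 3.76, 4.02 and 4.69 CPM in NR and at 4.17, 4.13, 3.52, 4.59 and 5.11 CPM in Vehicle. Only 65 to 110 reads per library stood behind these values, and the log2 fold change was -0.099 (SE 0.16, 95% interval -0.46 to 0.26, edgeR adjusted p = 0.854). The exons of Shmt1 share 184 bases (4.74% of their length) with Smcr8 on the opposite strand, those of Shmt2 share 32 bases with Ndufa4l2 and those of Mthfd1 share 37 bases with Gm47525. The study ran featureCounts in its default mode, and how reads from such overlaps were counted was not checked.

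Of the 9 genes beside Sfxn3, none was called by edgeR at an unadjusted p of 0.05 (0 of 9, against 9.71% of all tested genes), and none by DESeq2. All 9 had overlapping groups, against 1.65% of tested genes without overlap. Their log2 fold changes ran from -0.099 to 0.013, and their 95% intervals reached from -0.46 to 0.37 at the widest. For Sfxn1, Sfxn4 and Sfxn5 the intervals left out changes in NR of more than 0.26 downward and 0.15 upward on the log2 scale, whereas for Shmt1, Shmt2, Mthfd2 and Mthfd1l changes of the size seen in Sfxn3 lay inside them in either direction. The difference between Sfxn3 and the other genes was not tested.

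**Figure D2:**
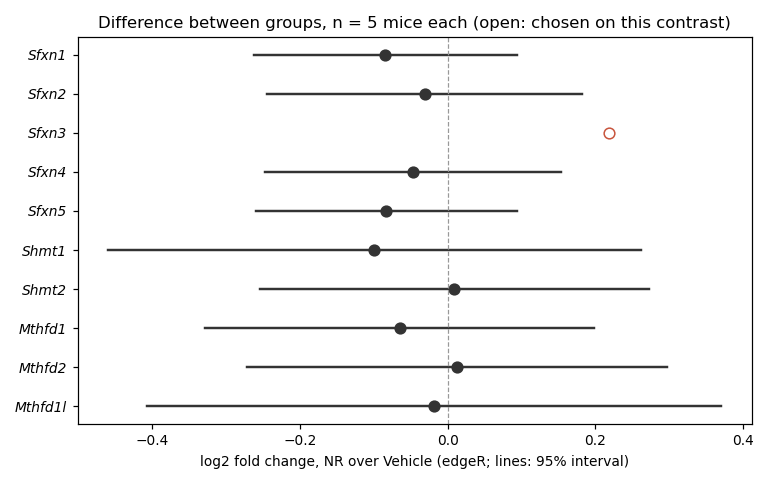
log2 fold change of NR over Vehicle for the 10 genes from edgeR (n = 5 mice per group), with lines for the 95% interval and an open point without interval for Sfxn3, which was chosen on this contrast. The intervals of the other 9 genes all cross 0.

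Per kilobase of the gene length in the files, Sfxn3 led the 10 genes in the Vehicle mice at 32.2 ± 1.03 CPM per kb (SD, n = 5), above 91.0% of all tested genes. Shmt2 followed at 16.4 CPM per kb (range 13.2 to 19.3) and Mthfd1 at 12.8 (11.0 to 15.8). These ranges overlapped with each other and lay below the Sfxn3 range of 30.6 to 33.2. Mthfd2 was next at 7.29 CPM per kb (5.69 to 9.07), below every Mthfd1 value with these lengths.

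The middle of the order was crowded. Sfxn5 at 5.51, Sfxn2 at 5.33, Sfxn1 at 4.58, Mthfd1l at 4.58 and Sfxn4 at 3.95 CPM per kb each had a range that overlapped with its neighbour's. Shmt1 was lowest at 1.11 CPM per kb (0.907 to 1.32), clear of Sfxn4 (3.47 to 4.39), and Sfxn3 was 29.1 times as high. The order within the middle depends on the length used. With the longest transcript in place of the gene length, Sfxn5 came to 11.9, Sfxn1 to 11.5 and Sfxn2 to 3.26 CPM per kb, while Sfxn3, Shmt2 and Mthfd1 kept the first places at 33.4, 22.3 and 17.6 CPM per kb, and the highest Mthfd2 value, 15.2, then reached past the lowest Mthfd1 value, 15.1. The files give Sfxn2 a length of 3210 bases and Sfxn3 one of 2966, where the exons of GENCODE M21 cover 5815 and 3110 bases. With the latter, Sfxn2 came to 2.94 and Sfxn3 to 30.8 CPM per kb in Vehicle.

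**Figure D3:**
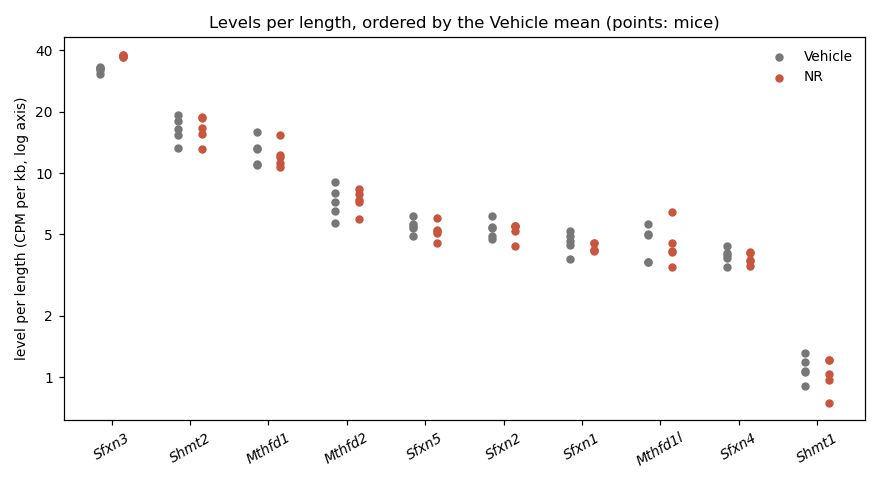
Level per length of the 10 genes in CPM per kb of gene length on a log axis, with 1 point per mouse of each group and the genes in order of the Vehicle mean. Sfxn3 lies above the other 9 genes in every mouse, and Shmt1 lies lowest.

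Sfxn3 made up 62.5% of the summed level per length of the 5 sideroflexins in the Vehicle mice (61.6 to 63.2%) and 66.9% in the NR mice (65.5 to 67.8%). This share contains the values on which Sfxn3 was chosen, and with the longest transcripts it was 52.1% in Vehicle and 57.2% in NR. The ratio of Sfxn3 to Sfxn1 had a geometric mean of 7.07 in Vehicle and 8.69 in NR, and the groups overlapped through Vehicle replicate 4 at 8.65. With the longest transcripts the ratio was 2.92 in Vehicle and 3.59 in NR.

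The cochlea held more transcript of the mitochondrial than of the cytosolic serine hydroxymethyltransferase. Shmt2 per length was 17.9, 15.4, 16.9, 11.2 and 13.7 times Shmt1 in Vehicle and 15.3, 17.5, 16.0, 16.1 and 15.6 times in NR. The geometric means were 14.8 and 16.1, and the groups overlapped. For the mitochondrial Mthfd1l and the cytosolic Mthfd1 the order was the other way, with Mthfd1l at 0.355 of Mthfd1 in Vehicle and 0.363 in NR. Mthfd2 exceeded its paralog Mthfd2l 4.23 times in Vehicle and 3.58 times in NR, again with overlap.

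4 pairs of the 10 genes were correlated from mouse to mouse by Pearson at an adjusted p of 0.05, and none by Spearman. After the mean of each group was subtracted, the log2 levels of Shmt2 and Mthfd2 had a Pearson r of 0.91 over the 10 mice (exact permutation p = 0.00104, adjusted over 45 pairs 0.0375) and a Spearman rho of 0.85 (adjusted exact permutation p = 0.0833). Without the 2 mice farthest from the median of Shmt2, r was 0.76. In both groups the mice lowest in Shmt2, NR replicate 2 and Vehicle replicate 4, were also lowest in Mthfd2. Vehicle replicate 1 was highest in both among the Vehicle mice, and NR replicate 5 among the NR mice.

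Mthfd1 and Mthfd1l had an r of 0.93 (exact permutation p = 0.00208, adjusted 0.0375) and a rho of 0.89 (adjusted exact permutation p = 0.0833), with r = 0.84 without the 2 farthest mice. Sfxn5 ran opposite to the mitochondrial pair. Its r was -0.88 with Shmt2 (exact permutation p = 0.0025, adjusted 0.0375; rho -0.79, adjusted 0.137) and -0.85 with Mthfd2 (exact permutation p = 0.00403, adjusted 0.0453; rho -0.62, adjusted 0.270). Without the 2 farthest mice these were -0.83 and -0.82. Of the 45 pairs, these 4 passed an adjusted p of 0.05 by Pearson and 0 by Spearman, and 11 had an unadjusted Pearson p of at most 0.05. Without the subtraction of group means, the 4 values were 0.91, 0.92, -0.84 and -0.82.

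**Figure D4:**
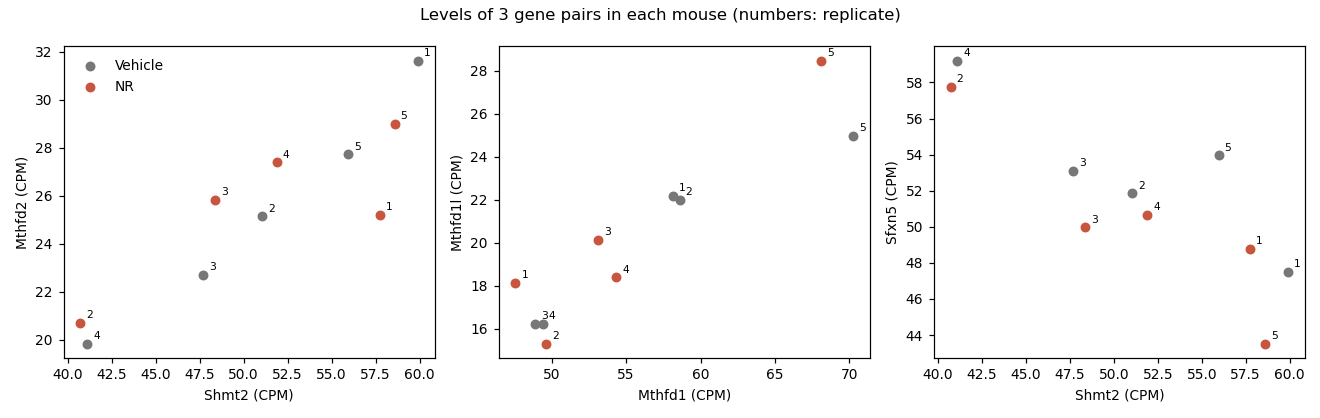
Level in CPM of Mthfd2 against Shmt2, Mthfd1l against Mthfd1 and Sfxn5 against Shmt2 in each of the 10 mice, coloured by group and numbered by replicate. The first 2 panels slope upward and the third slopes downward, with NR and Vehicle mice mixed along each slope.

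Of the 130 relations between a gene and a marker list, none passed an adjusted p of 0.05 by exact permutation, and 34 had an unadjusted p of at most 0.05. The lowest adjusted p, 0.0903, was shared by 14 relations that spread over 8 of the lists and 5 of the genes. With the mean log2 CPM of the proliferating cell markers, Mthfd2 had an r of 0.89 (exact permutation p = 0.00208, adjusted over 130 relations 0.0903, rho 0.89, adjusted 0.110). Without the 2 farthest mice this r was 0.72. For Shmt2 r was 0.79 and rho 0.81 (exact permutation p = 0.0041, adjusted 0.0903), with r = 0.60 without the 2 farthest mice, and for Mthfd1l r was 0.79 and rho 0.90 (exact permutation p = 0.00549, adjusted 0.0903), with r = 0.91. For Sfxn5 r was -0.69 (rho -0.61, exact permutation p = 0.00951, adjusted 0.0903) and -0.43 without the 2 farthest mice. The proliferating cell markers summed to 509 to 721 CPM in NR and 383 to 1142 CPM in Vehicle, with Vehicle replicate 1 the highest. With the bone markers, r was 0.84 for Shmt2 (rho 0.82, exact permutation p = 0.00521, adjusted 0.0903) and -0.82 for Sfxn5 (rho -0.88, exact permutation p = 0.00479, adjusted 0.0903), and 0.70 and -0.66 without the 2 farthest mice. 

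Relations of the same size were found with the markers of other cell types. With the supporting cell and matrix markers, r was -0.84 for Shmt2 (rho -0.75, exact permutation p = 0.00597, adjusted 0.0903) and 0.82 for Sfxn4 (rho 0.89, exact permutation p = 0.00479, adjusted 0.0903), and -0.82 and 0.77 without the 2 farthest mice. With the stria and fibrocyte markers, r was -0.82 for Shmt2 (rho -0.76, exact permutation p = 0.00688, adjusted 0.0903) and 0.76 for Sfxn5 (rho 0.87, exact permutation p = 0.00847, adjusted 0.0903), and -0.59 and 0.53 without the 2 farthest mice. Shmt2 had an r of -0.77 with the hair cell markers (rho -0.64, exact permutation p = 0.00924, adjusted 0.0903), and -0.67 without the 2 farthest mice. Mthfd2 had an r of 0.83 with the neuron markers (rho 0.79, exact permutation p = 0.00972, adjusted 0.0903), and 0.80 without them. For Sfxn4 r was -0.76 with the Schwann cell markers (rho -0.77, exact permutation p = 0.00569, adjusted 0.0903) and -0.81 with the B lymphocyte markers (rho -0.77, exact permutation p = 0.00958, adjusted 0.0903), and -0.70 and -0.83 without the 2 farthest mice. The part of these cell types in the paired levels was not tested.

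Sfxn3 varied with none of the other 9 genes beyond the adjusted threshold. Its r ran from -0.38 with Sfxn4 to 0.58 with Shmt1 (adjusted exact permutation p = 0.202 for the latter). Among 18328 other tested genes, the 5 with the highest Pearson r to Sfxn3 within groups were Slc47a2 (0.95), a cation exporter, Asb11 (0.94), Wnt2 (0.93), a secreted ligand, Flt4 (0.93), the receptor of lymphatic vessels, and Zdhhc3 (0.92), a protein acyltransferase. These are the extremes of many comparisons over 10 mice and carry no test. Zdhhc3 was at 86.4 ± 2.73 CPM in NR and 88.3 ± 5.48 CPM in Vehicle (SD, n = 5 each), and Asb11 at 2.71 ± 0.327 and 1.59 ± 0.437 CPM.

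**Figure D5:**
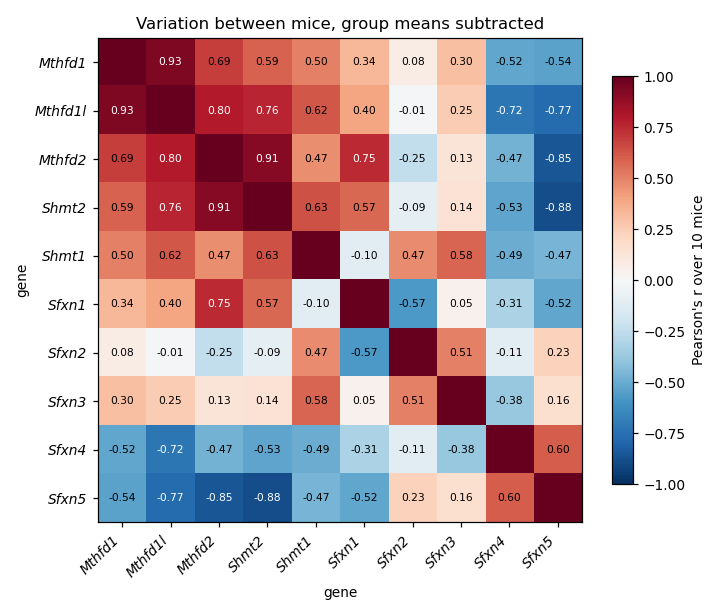
Pearson r between the log2 levels of each pair of the 10 genes over 10 mice after the group means were subtracted, from -1 to 1 on the colour scale. Shmt2 with Mthfd2 (0.91) and Mthfd1 with Mthfd1l (0.93) have the highest values, and Sfxn5 with Shmt2 (-0.88) the lowest.

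The genes around the 10 were described with 9 lists of the pathway. Together the lists held 105 tested genes outside the 10, of which 5 were called higher and 8 lower in NR (12.4% in all, against 9.71% of all tested genes). None passed an adjusted p of 0.05 in edgeR, the lowest being 0.408. Their median log2 fold change was -0.025, against -0.0092 over all tested genes.

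Among 9 further genes of mitochondrial folate and formate metabolism, 1 was called higher and 1 lower. Mthfd2l, the paralog of Mthfd2, stood at 14.2, 13.6, 13.6, 13.3 and 13.1 CPM in NR and at 13.3, 11.4, 11.7, 10.5 and 9.94 CPM in Vehicle. Only Vehicle replicate 1 reached into the NR range, and the log2 fold change was 0.26 (SE 0.092, edgeR adjusted p = 0.458). Dmgdh, which takes a methyl group from dimethylglycine onto folate, stood at 1.98, 2.73, 1.95, 2.49 and 1.10 CPM in NR and at 3.18, 4.67, 3.56, 6.30 and 3.71 CPM in Vehicle. Every NR mouse was below every Vehicle mouse, as for 0.878% of tested genes, and the log2 fold change was -1.06 (SE 0.26, edgeR adjusted p = 0.408). The list's median was -0.16. None of the 4 genes of the glycine cleavage system was called, and their median was 0.061. The most abundant genes per length of these lists were the glycine carrier Slc25a38, at 53.9 CPM in NR, and Dld, at 115 CPM, and neither was called.

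Of 10 genes that make or carry serine, 2 were called higher and 1 lower. Slc1a4, a carrier of serine and other neutral amino acids, stood at 29.6, 28.1, 33.2, 31.1 and 33.1 CPM in NR and at 26.6, 25.6, 28.5, 26.4 and 25.5 CPM in Vehicle. The groups overlapped only through NR replicate 2 and Vehicle replicate 3, and the log2 fold change was 0.23 (SE 0.065, edgeR adjusted p = 0.420). Sds, a serine dehydratase, had a log2 fold change of 0.67 (edgeR adjusted p = 0.476) on 13 to 41 reads per library. Slc6a9, a glycine transporter, was at 28.2 to 44.5 CPM in NR and 37.2 to 51.8 CPM in Vehicle, with a log2 fold change of -0.35 (edgeR adjusted p = 0.451). Phgdh, the first enzyme of serine synthesis, was at 92.7 CPM in NR and 90.2 CPM in Vehicle, and Psat1, which follows it, at 90.5 and 99.6 CPM. Slc38a2, a neutral amino acid transporter and the most abundant of the list per length, was at 556 CPM in NR, and none of these 3 genes was called.

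In the cytosol, 1 of 13 folate genes was called, the folate receptor Folr1, with a log2 fold change of -0.84 (edgeR adjusted p = 0.497) on 5 to 34 reads per library. Of 13 genes of the methionine cycle and transsulfuration, Bhmt2, a homocysteine methyltransferase, was called lower with a log2 fold change of -1.09 (edgeR adjusted p = 0.436). Bhmt2 had 8 to 80 reads per library, and its groups overlapped. None of 13 genes of purine synthesis, which uses formyl groups from folate, was called, and their log2 fold changes ran from -0.080 to 0.15. Ggh, Mat2a and Paics were the most abundant genes per length of these 3 lists, at 20.8, 254 and 162 CPM in NR, and none of them was called.

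For Sfxn2 and Sfxn4, the lists of iron and complex I genes were looked at. Of 18 iron-sulfur cluster and heme genes, 1 was called lower, the heme enzyme Cpox, at a log2 fold change of -0.52 (edgeR adjusted p = 0.512), and the list's median was -0.10. None of 14 complex I assembly genes was called, with log2 fold changes from -0.094 to 0.13. The most abundant genes per length of these lists were Alas2, the erythroid enzyme that starts heme synthesis, at 295 CPM in NR, and Ndufaf8, at 24.4 CPM, and neither was called.

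A list of 16 genes held Atf4 and its targets. Atf4 is the transcription factor that raises serine and folate genes under amino acid or mitochondrial stress. Of these 16 genes, 2 were called higher and 3 lower, with a median of -0.023. Sesn2, a stress-responsive inhibitor of growth signalling, stood at 14.9, 15.7, 16.1, 15.7 and 15.7 CPM in NR and at 20.4, 16.6, 18.6, 18.1 and 20.9 CPM in Vehicle. Every NR mouse was below every Vehicle mouse, as for 0.878% of all tested genes, and the log2 fold change was -0.28 (edgeR adjusted p = 0.420). Slc7a11, a cystine carrier, was at -0.34 (edgeR adjusted p = 0.423) and Ddit3 at -0.12 (edgeR adjusted p = 0.512). Atf5 was at 0.14 (edgeR adjusted p = 0.468), and the hormone Fgf21 at 1.17 (edgeR adjusted p = 0.458) on 5 to 32 reads per library. Atf4 itself was at 168 to 187 CPM in NR and 169 to 199 CPM in Vehicle and was not called. This list also holds Shmt2 and Mthfd2.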

How the data were processed

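RNA was sequenced from the cochleae of 10 mice, and the authors deposited 1 table of whole-number read counts per gene for each mouse, with no normalization. The submitters' processing notes name fastp, CASAVA, STAR 2.6.1d, featureCounts 1.5.0 and DESeq2 1.26.0, with mm10; gene positions and lengths come from the files. Counts were tested in edgeR 4.0.16 (R 4.3.3) with TMM scaling, filterByExpr and the quasi-likelihood test across all 18329 genes that passed, NR against Vehicle, and p-values were adjusted by Benjamini-Hochberg over all of them. CPM values are TMM-scaled, and log2 CPM used a prior count of 2. DESeq2 1.42.0, DESeq2 size factors, other count filters, a replicate block and leaving out each mouse were alternatives. Correlations used exact permutation within groups, two-sided (scipy 1.17.1). Exon overlaps come from GENCODE M21 and promoters from RefSeq. The GENCODE exon lengths, and the ratios and shares with other lengths, were added after seeing the data. The code was tested on simulated data.

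The 10 genes and all lists were chosen with earlier results of these data known. Named genes were the 10, in each pathway list those at an unadjusted p of at most 0.05 and the most abundant gene, and the 5 most like Sfxn3. Phgdh and Psat1 were added after their values were seen. The labels name separate mice only through replicate numbers, so p-values measure the spread between these libraries. All 45 pairs of libraries differed beyond counting noise. Counting errors given cover counting only.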

Additional observations from a re-analysis of the deposited data

Results flagged for a closer look

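For the named genes, 64 groups of 5 mice were checked for a mouse that stands far from the others, and 4 were found, where chance gives about 1 in 20 groups. Sfxn2 was at 14.0 CPM in NR replicate 3, with the nearest NR mouse at 16.8 CPM. Atf5 was at 70.4 CPM in NR replicate 3, with the nearest at 79.4 CPM. Ggh, a hydrolase of folate polyglutamates, was at 37.3 CPM in Vehicle replicate 2, with the nearest at 22.8 CPM. Mat2a, which makes S-adenosylmethionine, was at 276 CPM in NR replicate 5, with the nearest at 251 CPM.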

How the results depend on the processing

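With DESeq2's own test, 105 genes passed an adjusted p of 0.05 against 0 in edgeR, and with every gene that had a read kept, 1414 genes were higher at an unadjusted p of 0.05; the cause was not tested. Leaving out 1 mouse moved the genes higher between 669 (without NR replicate 3) and 1414 (without NR replicate 2), the genes lower between 484 (without NR replicate 3) and 1059 (without Vehicle replicate 1), those at an adjusted p of 0.05 between 0 and 1, and the called genes among the 9 between 0 and 1, the 1 being Sfxn1. Sfxn3, chosen on this contrast, ran from 0.21 to 0.24. The log2 fold changes of the others ran from -0.14 to -0.032 (Sfxn1), -0.057 to 0.038 (Sfxn2), -0.079 to 0.0085 (Sfxn4), -0.13 to -0.027 (Sfxn5), -0.16 to 0.0066 (Shmt1), -0.056 to 0.090 (Shmt2), -0.15 to 0.021 (Mthfd1), -0.060 to 0.11 (Mthfd2) and -0.17 to 0.072 (Mthfd1l).

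Fits with the mean log2 CPM of a marker list as a covariate were added after seeing the data. With adipocyte markers the sign turned for Sfxn2 (0.16, SE 0.19), Sfxn4 (0.029, SE 0.19), Shmt1 (0.24, SE 0.32), Shmt2 (-0.050, SE 0.25) and Mthfd2 (-0.15, SE 0.26). Each of these values was smaller than its SE. Sfxn1 came to -0.33 (unadjusted p = 0.0434 and adjusted p = 0.674 in edgeR). With muscle markers it turned for Sfxn2 (0.045), Sfxn4 (0.00032), Sfxn5 (0.011), Shmt2 (-0.058) and Mthfd2 (-0.13). With supporting cell markers it turned for Sfxn4 (0.093), Sfxn5 (0.057), Shmt2 (-0.26, unadjusted p = 0.0236 and adjusted p = 0.433 in edgeR) and Mthfd2 (-0.23). With proliferating cell markers it turned for Mthfd1 (0.016) and Mthfd1l (0.11).

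Same-numbered mice of the 2 groups had correlations of -0.22 to 0.17 between their deviations. Such values cannot exclude a pairing, and the labels do not say whether the numbers carry one. With the replicate number as a block, 879 genes were higher, 776 lower and 0 passed an adjusted p of 0.05, and none of the 9 genes was called. At its mean count, the counting error of Shmt1 was 10.2% in Vehicle (95.4 reads) and 10.9% in NR (84.6 reads).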
